A study of Mus musculus with 16 samples.

Results

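The 8 control libraries of a CGRP injection study were compared by time, with 4 prepared 8 h and 4 prepared 4 h after mice were given PBS, the saline vehicle. They were chosen by sample label alone and are 8 of the 16 libraries in the series. The cells were mesenchymal stromal cells (mSC) sorted from hindlimb skeletal muscle of C57BL/6 mice aged 8 weeks, with 1000 double-sorted cells in each library. No allele, transgene or other agent is named for these mice. The other 8 libraries came from mice given the neuropeptide CGRP by the same intraperitoneal route, again 4 at 4 h and 4 at 8 h. The submitters call the 4 libraries of a group biological replicates, and no source used here says how many mice went into each. The sorting gate, the clock time of injection and the days of collection are not given either. No mouse without an injection was analysed here, so a resting profile means the profile of PBS-injected controls. Hours since injection, time of day and collection session cannot be told apart in this comparison.

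Muscle mSC are the fibroblast-like cells between the fibres. They make the collagens and proteoglycans of the muscle connective tissue, and they release factors that act on muscle stem cells, nerves and immune cells. Like most cells they run a circadian clock, in which the activators Arntl and Clock switch on genes of their own repressors. They also respond to glucocorticoids and cytokines from the circulation, so a set of vehicle controls taken at different hours need not be flat.

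The libraries carried the labelled identity. Of 18 stromal markers 17 were detected, meaning a level of at least 1 CPM (counts scaled per 1000000 of the library) in all 8 libraries, among them Pdgfra, Dcn, Cd34, Ly6a and Pdpn. The exception was Tcf21, which was under 1 CPM in all 8. Of 18 macrophage markers 11 were under 1 CPM in all 8 libraries, as were 12 of 15 lymphocyte markers and 7 of 12 satellite cell markers, the last including Pax7, Myf5 and Myod1. Other lists were detected in part: 13 of 18 myofibre, 8 of 15 pericyte, 6 of 9 tenocyte and 4 of 12 Schwann cell markers. Tenocyte markers summed to 637 to 1639 CPM, with Scx at 0 to 0.586 CPM. Schwann cell markers summed to 1224 to 1330 CPM, of which Pmp22 alone gave 1142 to 1246 CPM, with Sox10 at 0 to 0.208 CPM. Totals were 6745884 to 10011920 counts per library. Replicate 4 at each time had the most genes with a count, 25579 at 4 h and 25227 at 8 h, against 21375 to 23294 in the other 6. PBS 4 h replicate 4 also had a summed erythroid marker level of 44.6 CPM, against 1.29 to 3.63 CPM elsewhere. Results without this library are given below for the count of called genes and for some of the lists and genes. On principal component 1, which held 24.8% of the variance, the 4 h libraries lay between -30.6 and -4.52 and the 8 h libraries between 6.07 and 30.7.

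The number of genes that differed with time after PBS was small in the edgeR fit and larger by other settings. Of 13949 genes tested with all 16 libraries in the fit, 72 differed between 8 h and 4 h at an adjusted p under 0.05, which is 0.516%. At 8 h 37 genes were higher (0.265% of those tested) and 35 were lower (0.251%). Such genes are called here. DESeq2 called 334 genes (178 higher, 156 lower), and edgeR with no filter on low counts called 422 (244 and 178). Of the 72 called genes 23 moved less than 1.5-fold and 25 more than 2-fold. In 68 of the 72 the 4 h and 8 h libraries did not overlap, which was so for 7.52% of all genes tested. With no adjustment 13% of genes had a p under 0.05, 6.74% higher and 6.29% lower. The count of called genes depended on single libraries. Leaving out replicate 1, 2, 3 or 4 of PBS 4 h gave 33, 24, 21 and 280 called genes, and leaving out replicate 1, 2, 3 or 4 of PBS 8 h gave 17, 119, 23 and 30. All 72 genes kept their direction in these 8 fits, and 10 of them stayed called in every one: Atp2a1, C3, Cdh11, Irf2bpl, Jup, Lgals3, Ltbp4, Plac8, Samhd1 and Sh2d4a. Of other genes described below, Il1r1, Tgfbi, Gpx8 and Birc5 stayed called in only 1 of the 8 fits. Among those called in 2 were Klf9, Plod2, Serpinh1, H2-K1 and Notch3, and Il1r2 and Fas were called in 3.

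**Figure D1:**
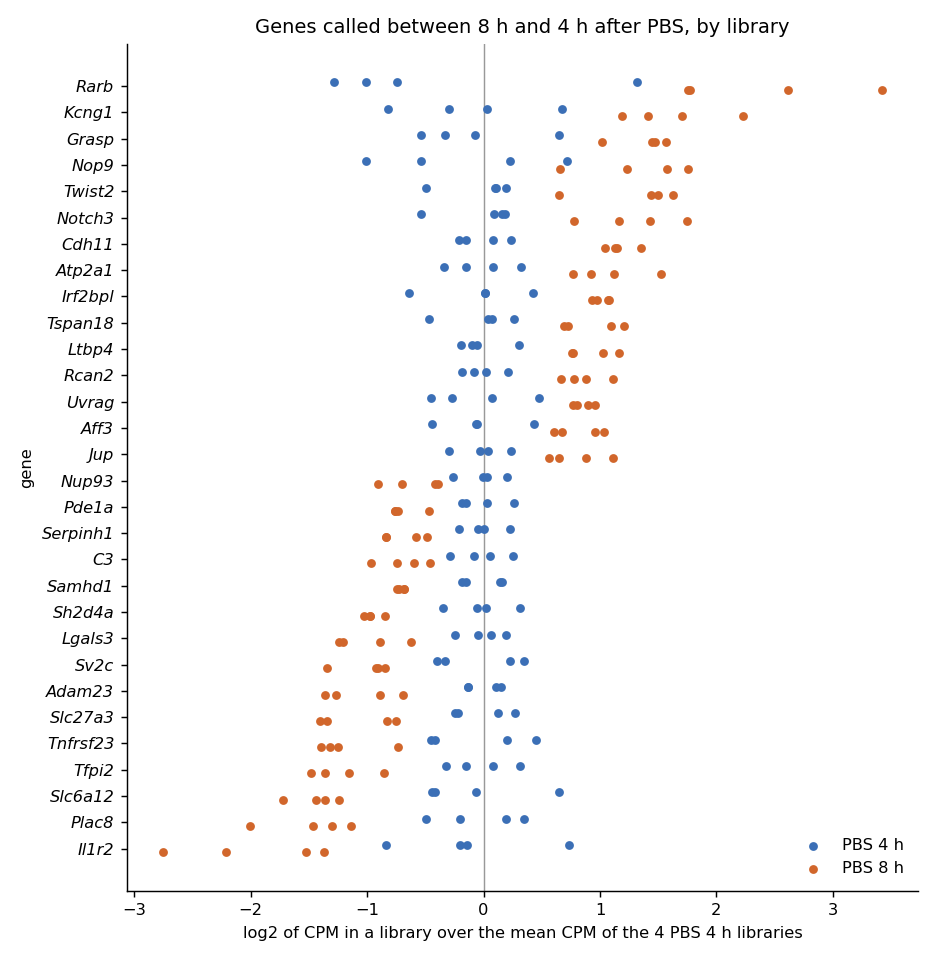
The 15 highest and 15 lowest log2 fold changes among the called genes that met a minimum level, each library plotted as the log2 of its CPM over the mean of the 4 PBS 4 h libraries (horizontal axis), 1 gene per row. Blue points are PBS 4 h and orange points PBS 8 h, and the groups overlap only for Nop9.

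Ltbp4 had the smallest adjusted p of the genes that rose. It encodes a latent TGF-beta binding protein of the matrix, which also takes part in elastic fibre assembly, and lies at chr7:27305136-27337692 on the reverse strand (GRCm38, GENCODE M21). It stood at 1193, 1119, 1231 and 1577 CPM in replicates 1 to 4 at 4 h and at 2173, 2175, 2610 and 2860 CPM at 8 h. All 4 libraries at 8 h lay above all 4 at 4 h, and the log2 fold change was 0.94 with a standard error (SE) of 0.12 (edgeR adjusted p = 0.000548). Tgfbi, a secreted matrix protein named for its induction by TGF-beta, rose by a log2 of 0.45 (SE 0.10, adjusted p = 0.0323). Of the 24 TGF-beta and BMP response genes tested these 2 were called, both higher, and 6 (25%) had an unadjusted p under 0.05. The list median was 0.12, against -0.004 for all genes tested.

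Other matrix and adhesion genes moved in both directions. Cdh11, the cadherin of mesenchymal cells, was at 20.2, 26.5, 19.4 and 23.7 CPM at 4 h and at 49.6, 57.4, 46.3 and 49.2 CPM at 8 h. The groups did not overlap and the log2 fold change was 1.17 (SE 0.19, adjusted p = 0.00656). Jup, which encodes the junction protein plakoglobin, rose by 0.82 on the log2 scale (SE 0.13, adjusted p = 0.00464), and Hmcn2, a hemicentin of the extracellular matrix, rose by 0.50 (SE 0.10, adjusted p = 0.0186). Plod2, a lysyl hydroxylase that prepares collagen for cross-linking, was at 18.4 to 22 CPM at 4 h and at 30 to 44.1 CPM at 8 h, and rose by 0.75 (SE 0.16, adjusted p = 0.03). Serpinh1, the collagen chaperone of the endoplasmic reticulum, went the other way: 908, 777, 750 and 673 CPM at 4 h became 435, 554, 520 and 435 CPM at 8 h. It fell by 0.68 (SE 0.14, adjusted p = 0.0379), with no overlap. These were the only called members of 25 tested collagen processing genes, which had a median of -0.12.

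The fibrillar collagens themselves were not called. Of 34 tested genes of the fibrillar matrix none passed the edgeR quasi-likelihood test, 7 had an unadjusted p under 0.05 (20.6%), 2 higher and 5 lower, and 27 had a fitted change below 0. Col3a1 was at 20477 to 30227 CPM at 4 h. At 8 h it was at 15956, 23981, 14768 and 13961 CPM, so replicate 2 lay within the 4 h range and the other 3 below it (adjusted p = 0.418). Adamts4, an aggrecan-cleaving protease, was at 9.97, 6.55, 10.6 and 5.1 CPM at 4 h and at 1.65, 3.51, 0.911 and 1.34 CPM at 8 h, with no overlap, and missed the threshold (log2 fold change -2.10, SE 0.50, adjusted p = 0.0716). Of 28 tested matrix proteases and inhibitors 10 had an unadjusted p under 0.05 (35.7%), 8 of them lower.

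Clock genes differed between the times in part, with 1 of them called. The core loop pairs Arntl with Clock, which bind E-boxes in DNA. Their targets include the period and cryptochrome genes, the repressors Nr1d1 and Nr1d2 and the output factors Dbp, Tef and Hlf. Nr1d1, at chr11:98767932-98775333 on the reverse strand (GRCm38), was the only clock gene called. Its level was 382, 333, 280 and 350 CPM at 4 h and 524, 445, 466 and 440 CPM at 8 h. The groups did not overlap, and the rise was 0.48 on the log2 scale (SE 0.11, adjusted p = 0.046). Leaving out a library gave Nr1d1 an adjusted p of 0.0346 to 0.151, and it stayed called without PBS 4 h replicate 1 (0.0424), PBS 4 h replicate 4 (0.0346) or PBS 8 h replicate 2 (0.0436) only. Limma-voom gave 0.0547.

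Dbp was the next of these by p, at 24.9, 23.3, 19.4 and 31.4 CPM at 4 h and 48.7, 36.2, 54.2 and 58.3 CPM at 8 h. It did not overlap either, with a log2 fold change of 0.99 (SE 0.22) and an adjusted p of 0.054. Arntl, the activator, ran in the other direction, with 18, 23, 28.3 and 16.7 CPM at 4 h and 5.47, 17.9, 5.47 and 2.42 CPM at 8 h (log2 fold change -1.47, SE 0.47, adjusted p = 0.188). Here PBS 8 h replicate 2 lay within the 4 h range and the other 3 libraries at 8 h below it. Per2 at 8 h was 63.9, 31.8, 62.4 and 85.3 CPM, against 20.8 to 35.5 CPM at 4 h, with a fitted change of 1.03 (SE 0.30, adjusted p = 0.135). Ciart, a repressor of the Arntl and Clock pair, was at 5.84, 8.22, 2.84 and 13 CPM at 4 h and at 22.1, 6.15, 19.3 and 37.8 CPM at 8 h (1.49, SE 0.46, adjusted p = 0.165). In both genes replicate 2 was again the 8 h library inside the 4 h range. Clock was flat, at -0.01 (SE 0.16), and the sign of so small a value changed between settings.

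Over the 24 clock genes tested, 1 was called higher and 0 lower, while 11 (45.8%) had an unadjusted p under 0.05, 9 higher and 2 lower. Their median was 0.34. Without PBS 8 h replicate 2 the called clock genes were 4 higher and 1 lower, and without any other single library between 0 and 2. An exact two-sided permutation test, 4 libraries against 4, was run on 16 of these genes. It reached its smallest possible p, 0.0286, for Nr1d1 and Dbp among the 16 tests. Adjusted over the 16 tests this became 0.171 for both, and none of the 16 genes passed 0.05 in the exact test. With only Nr1d1 and Dbp at the smallest possible p, no gene could pass 0.05 once adjusted over 16 tests. The exact test therefore cannot decide whether these genes changed.

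**Figure D2:**
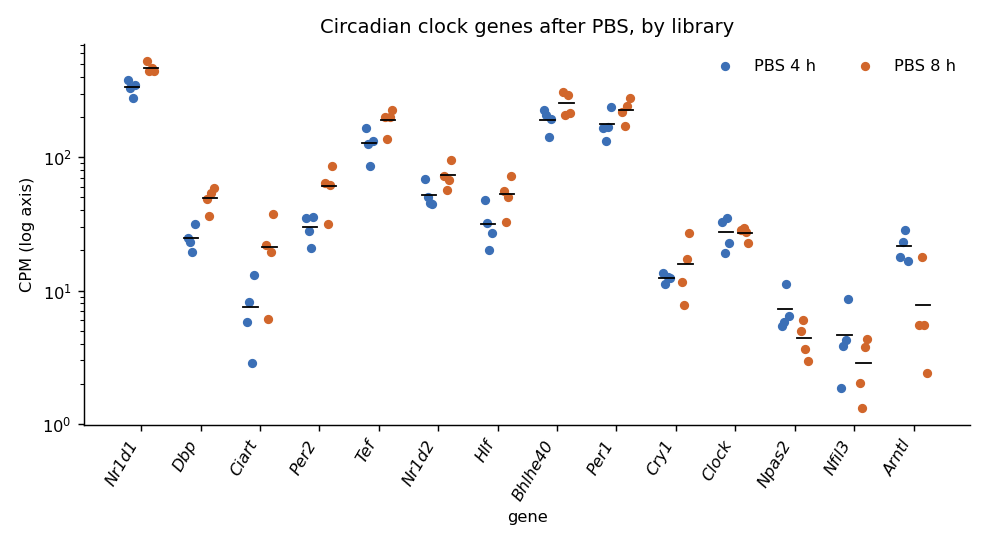
Level of 14 clock genes in each PBS library, in CPM on a log axis, with 4 h in blue, 8 h in orange and a black bar at each group mean. Nr1d1 and Dbp do not overlap between the times, and for Arntl, Per2 and Ciart 1 library at 8 h lies among those at 4 h.

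The start site of Ciart is shown because it holds the sequence the Arntl and Clock pair binds, CACGTG, 3 times. It was searched as these letters, which read the same on both strands. The window runs from 250 bases before to 50 bases after the start at chr3:95882179-95882478, reverse strand, from RefSeq on GRCm38.p6, and the capitals mark the matches.
Ciart: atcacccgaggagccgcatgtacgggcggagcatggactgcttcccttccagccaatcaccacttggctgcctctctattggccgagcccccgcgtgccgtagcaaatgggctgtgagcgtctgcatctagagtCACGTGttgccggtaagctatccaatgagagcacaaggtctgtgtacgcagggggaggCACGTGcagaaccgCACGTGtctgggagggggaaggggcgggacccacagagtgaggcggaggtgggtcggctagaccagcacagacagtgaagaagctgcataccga
The matches begin 116, 58 and 44 bases before the start. Among 20 clock genes with a RefSeq window, 5 held the motif (25%), against 8.09% of the 27025 symbols with a window: Bhlhe41, Ciart, Cry1, Per1 and Tef. Since the list is made of clock genes, the share describes the list. Among called genes with a window it was 2 of 29 higher (6.9%) and 3 of 28 lower (10.7%), near the share of all symbols. The windows of Nr1d1 and Dbp held no match, which says only that these letters are not within this distance. A match is a description of the sequence, and no binding was measured here.

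Among targets of the glucocorticoid receptor, the nuclear receptor for corticosterone, Klf9 was called. This transcription factor was at 54.4, 48.7, 55.3 and 62.5 CPM at 4 h and at 82.4, 65.2, 96.9 and 97.8 CPM at 8 h. Every library at 8 h lay above every library at 4 h, and the rise was 0.63 on the log2 scale (SE 0.13, adjusted p = 0.03). The well-known targets Fkbp5 (74.1 to 175 CPM at 8 h against 83.7 to 113 CPM at 4 h, adjusted p = 0.367) and Tsc22d3 (671 to 1655 CPM against 682 to 1017 CPM, adjusted p = 0.442) overlapped and were not called. The metallothionein Mt1 was at 211 to 493 CPM at 4 h and 161 to 193 CPM at 8 h, a fitted change of -0.82 (SE 0.27, adjusted p = 0.21). Of 28 tested genes of this list 4 were higher and 4 lower at an unadjusted p under 0.05 (28.6% together), with a median of 0.17.

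Interferon response genes lay lower at 8 h almost throughout. These genes are switched on by interferons and include antiviral enzymes and restriction factors. Of 34 tested, 33 had a fitted change below 0, 18 (52.9%) had an unadjusted p under 0.05, all of them lower, and 2 were called. The list median was -0.44. Without any 1 of the 8 libraries 31 to 33 members stayed below 0, 11 to 17 had an unadjusted p under 0.05 and 0 to 4 were called. It was 0 without PBS 4 h replicate 2 or PBS 8 h replicate 4. The 33 and 1 below and above 0 were the same counts under both other scalings.

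Bst2, tetherin, which holds budding virus at the cell surface, was at 52.6, 71.7, 55.3 and 59.2 CPM at 4 h and at 36.5, 44.1, 42.1 and 37.9 CPM at 8 h. It fell by 0.58 on the log2 scale (SE 0.11, adjusted p = 0.0154) with no overlap between the groups. Ifi27, an interferon-induced membrane protein at chr12:103434211-103440239 on the forward strand (GRCm38), went from 274, 337, 295 and 283 CPM to 235, 227, 209 and 210 CPM. It fell by 0.43 (SE 0.08, adjusted p = 0.0186), again with no overlap. Leaving out a library gave adjusted p values of 0.00993 to 0.0704 for Bst2 and of 0.00896 to 0.0722 for Ifi27. Both calls were lost without PBS 4 h replicate 2 (0.057 and 0.0697) or PBS 8 h replicate 4 (0.0552 and 0.0722). Bst2 also lost its call without PBS 8 h replicate 1 (0.0704), and Ifi27 without PBS 4 h replicate 3 (0.0515) or PBS 8 h replicate 3 (0.0682).

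Several members near the threshold did not overlap either. Oas2, a sensor of double-stranded RNA, was at 12.8, 24.1, 14.1 and 12.1 CPM at 4 h and 4.58, 6.74, 8.05 and 5.37 CPM at 8 h (adjusted p = 0.0593). Usp18, which removes Isg15 from proteins, was at 33.5 to 42.2 CPM and then 18.8 to 25.5 CPM (adjusted p = 0.0601). Irf7, the factor that amplifies interferon production, was at 32.3 to 40.9 CPM and then 19.4 to 24.2 CPM (adjusted p = 0.102). Ifit2 was the exception in direction, at 36.4 to 47.6 CPM and 43.8 to 56.7 CPM (0.21, SE 0.18, adjusted p = 0.69).

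**Figure D3:**
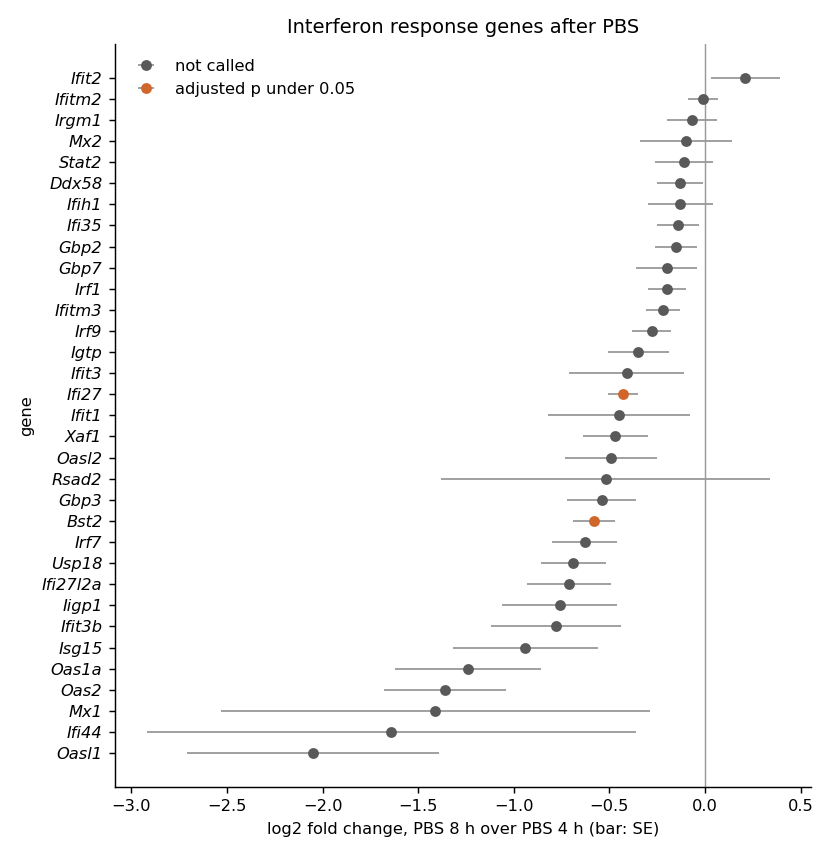
The log2 fold change of 33 of the 34 interferon response genes tested, PBS 8 h over PBS 4 h, with bars for its SE, 1 gene per row. The 2 orange points, Bst2 and Ifi27, had an adjusted p under 0.05, and only Ifit2 lies above 0.

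Start sites of Bst2, which fell, and Isg15, a classical member of the list, are shown for the interferon-stimulated response element, searched on both strands as GAAA, any 2 bases and GAAA again. Bst2 has its window at chr8:71537423-71537722 and Isg15 at chr4:156200769-156201068, both on the reverse strand and both from RefSeq on GRCm38.p6. Capitals mark the bases of overlapping matches.
Bst2: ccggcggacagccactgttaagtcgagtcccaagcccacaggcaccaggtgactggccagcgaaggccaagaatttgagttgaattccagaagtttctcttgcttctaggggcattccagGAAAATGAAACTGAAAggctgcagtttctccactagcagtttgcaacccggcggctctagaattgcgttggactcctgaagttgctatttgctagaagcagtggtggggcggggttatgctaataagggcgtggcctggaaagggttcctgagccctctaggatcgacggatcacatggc
Isg15: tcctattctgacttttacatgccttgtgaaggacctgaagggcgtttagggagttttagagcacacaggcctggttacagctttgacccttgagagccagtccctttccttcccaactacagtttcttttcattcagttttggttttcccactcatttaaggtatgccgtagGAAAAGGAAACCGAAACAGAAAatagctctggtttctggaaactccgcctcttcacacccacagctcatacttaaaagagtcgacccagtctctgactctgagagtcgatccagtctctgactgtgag
In Bst2 there are 2 overlapping matches that begin 130 and 124 bases before the start, and in Isg15 there are 3 that begin 78, 72 and 66 bases before it. Of 28 list members with a window 18 (64.3%) held the element, against 3.99% of the 27025 symbols. Since the list is made of genes known to respond to interferon, this share describes the list and not the change with time. Among the called genes with a window the element was in 2 of 28 that were lower, Bst2 and Vtn, and in 1 of 29 that were higher, Tgfbi. Isg15 itself was at 6.13, 6.55, 7.49 and 3.23 CPM at 4 h and 3.44, 1.32, 3.04 and 4.3 CPM at 8 h and was not called (adjusted p = 0.282).

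Several immune genes outside that list were also called lower. Complement component C3, the hub of the complement cascade, was at 2112, 1677, 1450 and 1845 CPM at 4 h and at 1290, 1168, 909 and 1057 CPM at 8 h. It fell by 0.68 on the log2 scale (SE 0.11, adjusted p = 0.00656), with no overlap. Lgals3, galectin 3, a sugar-binding protein that also acts outside cells, had the smallest adjusted p of all genes. Its values were 77.5, 96.1, 105 and 88.7 CPM at 4 h and 39.7, 59.6, 49.7 and 38.8 CPM at 8 h, and it fell by 0.97 (SE 0.12, adjusted p = 0.000444). Samhd1, an enzyme that breaks down deoxynucleotides, fell by 0.71 (SE 0.11, adjusted p = 0.00313). H2-K1, a classical MHC class I heavy chain, fell by 0.34 (SE 0.07, adjusted p = 0.0401) and was the only called member of 19 tested class I genes. Reads of H2-K1 can be shared with its close paralogs, and how the authors treated them is not given, so its value is uncertain.

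Receptors for interleukin 1 and Fas ligand were lower at 8 h. Il1r2, the decoy receptor, was at 40.2, 24.9, 38.5 and 73.9 CPM at 4 h and at 17.2, 15.4, 9.57 and 6.58 CPM at 8 h. It fell by 1.86 (SE 0.35, adjusted p = 0.0323). The signalling receptor Il1r1 was at 74.7 to 85.2 CPM at 4 h and 55 to 63.2 CPM at 8 h, and fell by 0.43 (SE 0.10, adjusted p = 0.0445). Fas, the death receptor, was at 34.9 to 43.3 CPM and then 25.4 to 30 CPM, and fell by 0.53 (SE 0.12, adjusted p = 0.038). None of these 3 overlapped between the times. They were the only called members of 34 tested cytokine receptors, whose median was -0.15.

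Chemokine levels differed widely between control libraries. None of 16 tested was called by edgeR, 4 had an unadjusted p under 0.05 (25%), all lower, and the median was -0.38. Without PBS 4 h replicate 4, 1 chemokine was called lower. Ccl2, which draws monocytes, was at 37.6, 53.6, 195 and 129 CPM at 4 h and at 15.6, 101, 36.5 and 6.58 CPM at 8 h (adjusted p = 0.537). Cxcl5, which draws neutrophils, was at 0, 0.832, 92.7 and 20.8 CPM and then 0, 2.49, 1.22 and 0 CPM (adjusted p = 0.3). In both genes PBS 4 h replicate 3 was highest, and it was also highest for Ccl7, at 126 CPM, and for the haem enzyme gene Hmox1, at 343 CPM against 26.9 to 134 CPM in the other 7. In contrast Ccl11, eotaxin, was at 883 to 983 CPM at 4 h and 893 to 1010 CPM at 8 h (0.04, SE 0.07, adjusted p = 0.888).

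Several genes of dividing cells were near 0 at 8 h. Hmmr, a spindle and hyaluronan-binding protein, had 3.7, 2.91, 3.87 and 0.729 CPM at 4 h and 0.127, 0, 0 and 0 CPM at 8 h, which is 91 counts against 1. The pooled ratio was 76.9 with a 95% interval of 13.5 to 3070 that covers counting error only (adjusted p = 0.03). Spc24, a kinetochore subunit, had 1.56 to 5.1 CPM at 4 h and 0 to 0.304 CPM at 8 h, a pooled ratio of 15.5 (adjusted p = 0.0154). Birc5, survivin, had 2.08 to 3.7 CPM and then 0.134 to 0.911 CPM, a pooled ratio of 6.97 (adjusted p = 0.0445). Mxd3, a repressor expressed in S phase, had a pooled ratio of 15 (71 counts against 4, adjusted p = 0.0439). These genes are too low for the ranking of named genes, and they were picked out after their values were seen.

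The cell cycle list, which holds none of those genes, had no called member among 28 tested. Without PBS 4 h replicate 4, 1 member was called lower. At an unadjusted p under 0.05 there were 8 lower and 1 higher (32.1% together), and 24 of 28 fitted changes were below 0. Cyclin Ccnb2 was at 6.7, 7.9, 15.9 and 8.95 CPM at 4 h and at 0.509, 3.37, 2.58 and 0.672 CPM at 8 h (log2 fold change -2.49, SE 0.72, adjusted p = 0.137). Mki67, the proliferation marker, was at 4.16 to 10.3 CPM and then 0 to 1.82 CPM (adjusted p = 0.25). The 4 h and 8 h libraries did not overlap for either. Mcm5, a subunit of the replication helicase, was at 17.1, 19.3, 12 and 6.04 CPM and then 7.12, 6.59, 7.6 and 8.6 CPM (adjusted p = 0.155). Over the same interval the summed satellite cell markers went from 386, 328, 487 and 417 CPM to 284, 321, 291 and 289 CPM, with no overlap. That sum was made mostly by Sdc4 (180 to 359 CPM) and Vcam1 (56.2 to 115 CPM), while Pax7, Myf5 and Myod1 were under 1 CPM in all 8, and its part in the result was not tested. In a bulk library of sorted cells, fewer dividing cells and less RNA per dividing cell cannot be told apart.

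Some transcription factors and receptors rose from a low level. Rarb encodes retinoic acid receptor beta, itself a target of retinoic acid, and lies at chr14:16430839-16819156 on the reverse strand (GRCm38). Its level was 0.427, 0.624, 0.516 and 2.6 CPM at 4 h and 3.56, 3.51, 6.38 and 11.2 CPM at 8 h, without overlap, a rise of 2.49 (SE 0.53, adjusted p = 0.036). Leaving out a library gave adjusted p values of 0.00218 to 0.16 and changes of 2.04 to 3.50, with the call lost without any 1 of PBS 4 h replicates 1 to 3 (0.0881, 0.114 and 0.108) or of PBS 8 h replicates 1, 3 and 4 (0.0539, 0.0987 and 0.16). Twist2, a factor of mesenchymal identity, was at 2.14 to 3.44 CPM and then 4.71 to 9.27 CPM, a rise of 1.34 (SE 0.28, adjusted p = 0.0322). The stromal marker list that holds Twist2 leaned the other way: of 17 tested, 11 had a fitted change below 0, 1 was called higher (Twist2) and 1 lower (Ly6a), and the median was -0.24. Notch3, a receptor of mural cells, was at 3.61 to 5.93 CPM and then 8.96 to 17.6 CPM, a rise of 1.32 (SE 0.28, adjusted p = 0.0323). The other pericyte and smooth muscle markers gave no second call among 9 tested. The summed level of their 15 markers was 206 to 256 CPM at 4 h and 238 to 318 CPM at 8 h, Actg2 was at 0 in all 8, and their part in the result was not tested.

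Stbd1, a glycogen-binding protein, had the largest fitted rise of the called genes. It had 0.142 to 0.516 CPM at 4 h and 3.69, 1.61, 1.52 and 6.85 CPM at 8 h, or 11 counts against 101, a pooled ratio of 10.9 (95% interval 5.82 to 22.5, adjusted p = 0.0211). The potassium channel subunit Kcng1, at chr2:168260117-168281736, was at 12, 6.66, 9.55 and 18.7 CPM and then 31.2, 26.8, 54.8 and 38.2 CPM, a rise of 1.68 (SE 0.29, adjusted p = 0.0152). Irf2bpl, a transcriptional coregulator, was at 24.3 to 50.8 CPM and then 71.9 to 79.8 CPM, a rise of 1.01 (SE 0.15, adjusted p = 0.00271). For all 3 genes each library at 8 h was above each at 4 h.

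Atp2a1, the calcium pump of fast muscle fibres, rose from 10.5, 14.1, 12 and 16.6 CPM to 25.2, 22.6, 29 and 38.3 CPM (1.10, SE 0.18, adjusted p = 0.00464). It is a transcript of myofibres, and 18 such markers together came to 189 to 279 CPM at 4 h and 239 to 361 CPM at 8 h. Of 15 tested Atp2a1 was the only one called, and 13 had a fitted change above 0. Acta1, the actin of skeletal muscle, was at 66.6 to 104 CPM and then 89.7 to 150 CPM (0.71, SE 0.19, adjusted p = 0.117). The part of myofibre RNA in the Atp2a1 result was not tested.

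Lists of protein folding and turnover had no called member, and most of their fitted changes were below 0. All 26 tested proteasome subunits had a fitted change below 0, with a median of -0.10 that was -0.10 and -0.11 under the other 2 scalings, and 6 had an unadjusted p under 0.05 (23.1%). Of 22 heat shock and chaperone genes 20 were below 0, with a median of -0.21 and 5 at an unadjusted p under 0.05 (22.7%). Of 24 genes of the endoplasmic reticulum stress response 17 were below 0 and 7 above, with a median of -0.20, and at an unadjusted p under 0.05 there were 6 lower and 2 higher (33.3% together). Serpinh1, the collagen chaperone that fell, belongs to the collagen processing list. Ribosomal proteins had no member with an unadjusted p under 0.05 among 30 tested, and their median was -0.05. Gpx8, an endoplasmic reticulum peroxidase, was the called member of the 30 detoxification and antioxidant genes, at 158 to 191 CPM and then 130 to 141 CPM, and fell by 0.40 (SE 0.09, adjusted p = 0.0439). In that list 13 genes (43.3%) had an unadjusted p under 0.05, 4 higher and 9 lower. The glycolysis list likewise had 1 call in 25 tested, Pfkp, the platelet-type phosphofructokinase, which fell by 0.48 (SE 0.09, adjusted p = 0.0158).

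The mice given CGRP offer the same interval in libraries whose values do not enter the PBS means. They are not separate from the PBS calls, since all 16 libraries share the filter, the scaling and the estimate of spread. With the 8 PBS libraries alone 60 of the 72 genes were called. In the fit of all 16 libraries 1012 genes (7.26%) were called between 8 h and 4 h after CGRP. Of the 72 genes called after PBS 58 (80.6%) changed in the same direction after CGRP, against 54.3% of all genes tested. After CGRP 26 of the 72 (36.1%) were called in the same direction, 12 higher and 14 lower, and 0 in the opposite one. Cdh11 rose by 1.17 after PBS and by 1.11 after CGRP (adjusted p = 0.00133 after CGRP), and Nr1d1 rose by 0.48 and 0.50 (adjusted p = 0.00562). C3 fell by 0.68 and by 0.87 (adjusted p = 5.49e-05). Plac8, a small cysteine-rich protein, fell by 1.45 after PBS (SE 0.22, adjusted p = 0.00271) and by 2.09 after CGRP (adjusted p = 5.71e-07).

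**Figure D4:**
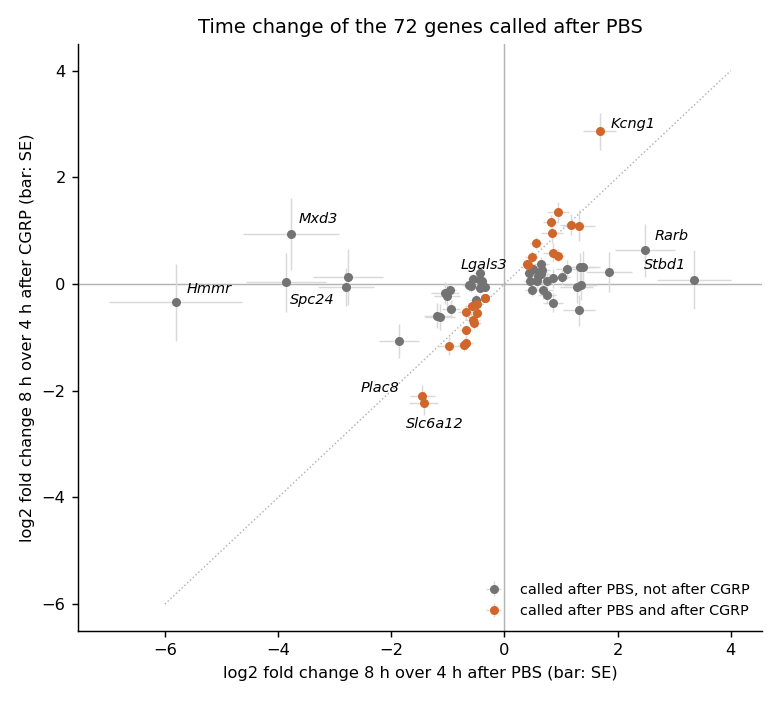
The log2 fold change of 8 h over 4 h after PBS (horizontal) and after CGRP (vertical) for the 72 genes called after PBS, with bars for the SE and a dotted line of equal change. Orange points, 26 genes, were called in both, and Hmmr, Stbd1 and Spc24 lie far from 0 on the horizontal axis only. Mxd3 lies at -3.77 on the horizontal axis and at 0.94 (SE 0.68) on the vertical.

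The time change differed between PBS and CGRP at an adjusted p under 0.05 for 156 genes (1.12%). Of the 72 genes 11 were among them, a count that uses the same PBS libraries that chose the 72. Lgals3 fell by 0.97 after PBS and had a log2 fold change of -0.12 after CGRP, a difference of -0.85 (SE 0.16, adjusted p = 0.00967). Rcan2, a calcineurin regulator, rose by 0.86 after PBS and had a change of -0.35 after CGRP (difference 1.21, adjusted p = 0.0218). Ifi27 fell by 0.43 after PBS and had a change of 0.08 after CGRP (difference -0.51, adjusted p = 0.0305). For Spc24 the changes were -3.86 and 0.03 (difference -3.89, adjusted p = 0.0329). For Hmmr they were -5.81 and -0.34, and the difference was not called (adjusted p = 0.071).

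With mitochondrial genes, ribosomal proteins and unnamed gene models left out of the ranking, the resting profile was led by secreted and matrix proteins. To compare genes with each other, levels are given as TPM, which here are counts per kilobase of merged exon length, scaled to the same sum in every library. Gsn, gelsolin, which severs actin filaments and is also secreted, stood alone at 111666 ± 10121 TPM (SD, n = 8) and took 9.998% to 12.6% of all counts. Dcn, the proteoglycan decorin, followed at 10989 ± 882 TPM. The next were Sparc, Cst3, Mgp, Serping1 and Col3a1, between 7084 and 6535 TPM, of which Sparc and Col3a1 are matrix proteins, Cst3 and Serping1 secreted protease inhibitors and Mgp an inhibitor of calcification. Then came Igfbp6, Myoc, Ly6a, Ifitm3, Col1a1 and Col6a1, between 6061 and 3818 TPM. The 25 highest named transcripts made up 22.2% ± 0.753 of counts (SD, n = 8). With no scaling by length 15 of these 25 were still among the 25 highest. Of the 25 only Ly6a, the surface antigen Sca-1, a common marker of mouse stromal cells, was called with time. It went from 2072, 2430, 2275 and 2057 CPM to 1682, 1806, 1766 and 1670 CPM, and fell by 0.35 (SE 0.07, adjusted p = 0.0322). The library totals also hold the repeat-like models Gm10800 and Gm10801, together 0.637% to 2.89% of counts.

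**Figure D5:**
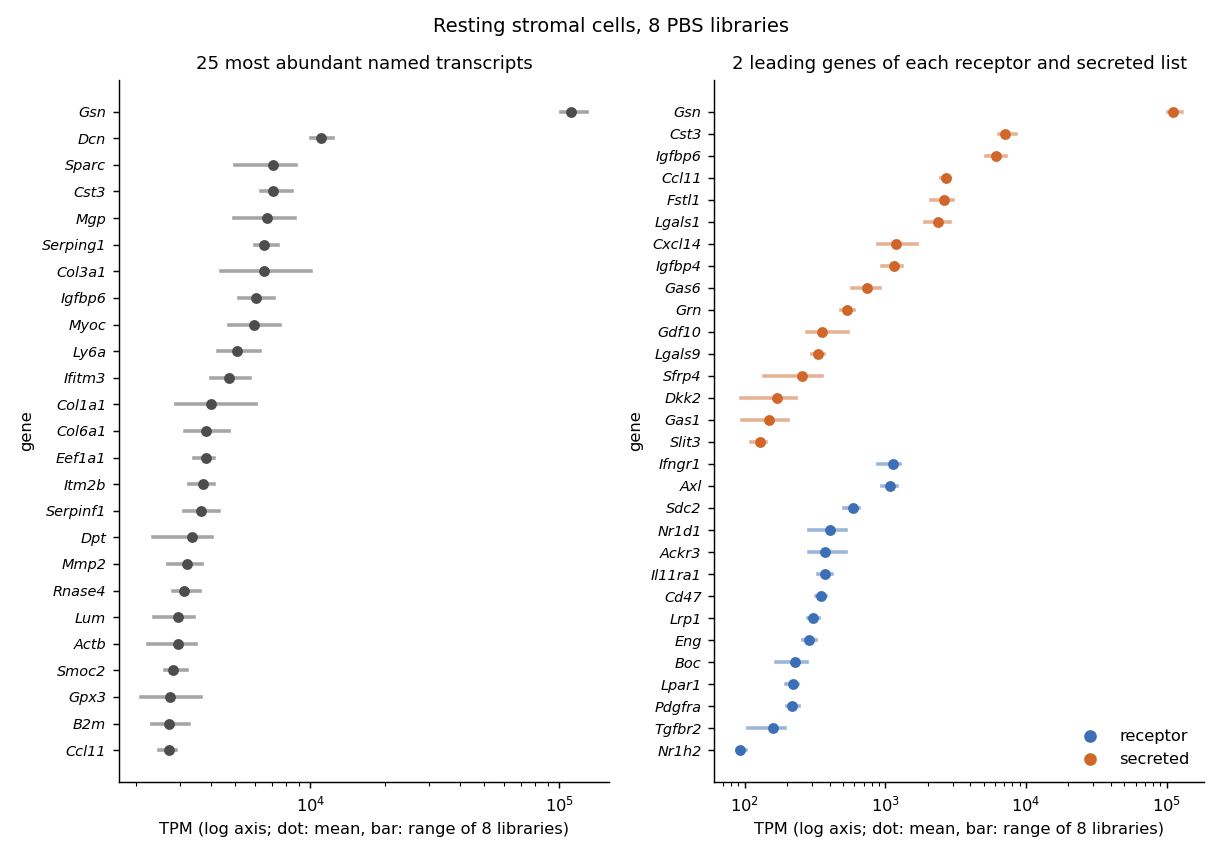
Levels in the 8 PBS libraries in TPM on a log axis, with a dot at the mean and a bar from the lowest to the highest library. The left panel gives the 25 most abundant named transcripts, led by Gsn, with mitochondrial genes and ribosomal proteins left out. The right panel gives the 2 leading genes of each receptor list (blue) and each list of secreted factors (orange).

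Control cells expressed most of the receptors examined: 172 of 245 were detected, and 26 were under 1 CPM in all 8 libraries. Among receptors for growth factors Axl, the receptor of Gas6, led at 1072 ± 96 TPM (SD, n = 8), followed by Pdgfra at 217 ± 15.1 TPM, Ddr2, a collagen receptor, at 183 ± 10.5 TPM and Pdgfrb at 135 ± 21.8 TPM. Kit and Fgfr4 were under 1 CPM throughout. Eng, the TGF-beta coreceptor endoglin, was at 284 ± 23.5 TPM and Tgfbr2 at 158 ± 27 TPM. The interferon gamma receptor chain Ifngr1 was the highest of the cytokine receptors at 1122 ± 134 TPM, ahead of Il11ra1 at 369 ± 35.2 TPM and Tnfrsf1a at 279 ± 29.3 TPM. Epor and Il13ra2 were among the 5 under 1 CPM in all libraries.

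Receptors for peptides, amines and lipids were detected for 31 of 57 genes. The chemokine scavenger Ackr3 led at 373 ± 70.1 TPM, with the lysophosphatidic acid receptor Lpar1 at 220 ± 12.2 TPM. Both chains of the CGRP receptor were present in the controls: Ramp1 at 123 ± 24.8 TPM and Calcrl at 27.5 ± 4.05 TPM. Ramp2, which turns Calcrl into an adrenomedullin receptor, was at 88.5 ± 10.1 TPM, while Ramp3 was under 1 CPM in all 8. Neither Ramp1 (adjusted p = 0.409) nor Calcrl (adjusted p = 0.909) was called with time. Agtr1a, the angiotensin receptor, was at 122 ± 19.2 TPM and Ptgir, the prostacyclin receptor, at 98.9 ± 9.54 TPM. Cxcr4, Ednrb, S1pr1 and Adrb1 were under 1 CPM in all libraries.

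Of the guidance and morphogen receptors 33 of 41 were detected, led by Lrp1 at 306 ± 17.5 TPM and the Hedgehog coreceptor Boc at 229 ± 37.5 TPM. Among 28 integrins and matrix receptors 23 were detected, with the syndecan Sdc2 at 584 ± 44.2 TPM, Cd47 at 347 ± 18.6 TPM and Itgb1 at 297 ± 35 TPM. The nuclear receptors were led by Nr1d1 at 406 ± 75.9 TPM, and the glucocorticoid receptor Nr3c1 was at 48.8 ± 4.93 TPM. The spread of Nr1d1 includes its rise between the times.

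Of 215 secreted factors 151 were detected and 32 were under 1 CPM in all 8 libraries. The chemokines were dominated by Ccl11 at 2700 ± 139 TPM and Cxcl14 at 1183 ± 268 TPM, with Cxcl12, which retains CXCR4+ cells, at 247 ± 23.5 TPM. Ccl2 was at 197 ± 180 TPM, a spread nearly as large as its mean. Among stromal cytokines Lgals1 led at 2361 ± 322 TPM. The alarmin Il33 was at 234 ± 78.5 TPM and Csf1, the growth factor of macrophages, at 95.5 ± 14.7 TPM. Il6 was at 0 to 2.32 CPM, and Csf2, Csf3, Osm and Tnfsf11 were under 1 CPM in all 8.

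Gas6, the ligand of Axl, was the leading growth factor at 739 ± 99.5 TPM, followed by progranulin, Grn, at 534 ± 39.1 TPM. Igf1 was at 94 ± 16.1 TPM and the neurotrophin Ntf3 at 85 ± 10.4 TPM, while Bdnf, Gdnf, Areg, Ereg and Pdgfb were under 1 CPM throughout. In the TGF-beta family Fstl1 led at 2609 ± 326 TPM, with the ligands Gdf10 at 355 ± 84.6 TPM and Bmp4 at 190 ± 22.3 TPM. Of the antagonists Nog and Grem1 were under 1 CPM throughout, while Chrd was at 56.5 ± 4.85 TPM and Fst at 50.5 ± 9.68 TPM. Nbl1, another BMP antagonist, was at 121, 110, 108 and 171 CPM at 4 h and 194, 230, 246 and 298 CPM at 8 h, with no overlap and an adjusted p of 0.0844.

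The 3 highest members of the Wnt list were inhibitors: Sfrp4 was at 256 ± 78.4 TPM, Dkk2 at 170 ± 46.3 TPM and Sfrp2 at 165 ± 55.8 TPM, against 24.4 ± 4.92 TPM for Wnt5a and 23.3 ± 5.55 TPM for Wnt2, ligands that did not differ beyond their spread. Other inhibitors lay on both sides of these ligands. Sfrp1 at 33.6 ± 4.54 TPM and Dkk3 at 30.6 ± 8.82 TPM had higher means, while Wif1 at 9.55 ± 8.43 TPM and Frzb at 2.64 ± 0.904 TPM had lower ones. The guidance ligand list was led by the Hedgehog coreceptor Gas1 at 149 ± 37.9 TPM, with the secreted ligands Slit3 at 129 ± 11.1 TPM and Sema3c at 76.4 ± 10.7 TPM, and Shh and Ihh were under 1 CPM in all 8. Binding proteins for growth factors reached far higher levels, with Igfbp6 at 6061 ± 576 TPM and Igfbp4 at 1144 ± 124 TPM. Of all listed receptors and secreted factors, the only ones called with time were Il1r1, Il1r2, Fas, Notch3, Rarb and Nr1d1 among the receptors and Ltbp4, C3 and Lgals3 among the secreted factors.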

How the data were processed

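RNA of 16 libraries was sequenced, in 4 groups of 4, each from 1000 sorted cells amplified by limited PCR, per the labels' protocols. The deposited values are raw counts of reads per gene for 52997 gene symbols; the authors aligned reads to mm10 with STAR 2.5.4 and counted with featureCounts, per the submitters' processing notes. No source used here gives the annotation, strand or multimapping settings, and the Nextera XT kit does not mark strand, so overlapping genes cannot be told apart.

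Counts of all 16 libraries were fitted with edgeR 4.0.16 (quasi-likelihood, TMM, filterByExpr, robust, 1 mean per group, 12 residual degrees of freedom, R 4.3.3). P-values were adjusted by Benjamini and Hochberg over the 13949 genes tested and called under 0.05, and the procedure was tested on simulated data. CPM uses TMM library sizes. TPM uses merged GENCODE M21 exons. Counting intervals are 95% and exact. No pair of libraries of the same group agreed within sampling noise, and pairs across groups were not compared.

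Alternatives were 2 other scalings, 2 filters, DESeq2 1.42.0, limma-voom (limma 3.58.1), the 8 PBS libraries alone, a replicate block and leaving out each library. Leaving out replicate 4 at both times was added after the data were seen. Named genes are 16 clock genes, the 15 highest and 15 lowest called genes with at least 5 CPM, up to 4 called or 2 other members of a list by p, the 25 highest resting transcripts and the 6 highest of each receptor or secreted list. Every other gene with values was chosen after its values were seen. The ranking of resting transcripts left out mitochondrial genes, ribosomal proteins and unnamed gene models. The members and the 59 gene lists were chosen with earlier results of these data known. The single values of some list members are not reported here.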

Additional observations from a re-analysis of the deposited data

Results flagged for a closer look

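In groups of 4 libraries, 208 such groups were searched for a library whose gap to its nearest neighbour was above Dixon's 95% critical value as a share of the range, which chance gives in about 1 of 20. At 4 h, replicate 1 was high for Epb41l2 (341 CPM) and low for Fas (34.9 CPM) and Twist2 (2.14 CPM). Replicate 3 was low for Notch3 (3.61 CPM). Replicate 4 was high for Rarb (2.6 CPM), for the summed myofibre markers (279 CPM), for the summed erythroid markers (44.6 CPM) and for the share of Gsn (12.2% of counts).

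At 8 h, replicate 1 was high for Hmmr (0.127 CPM) and replicate 2 for Mxd3 (0.586 CPM). Replicate 4 was high for Pde1a (44.2 CPM) and Plod2 (44.1 CPM) and low for Spc24 (0 CPM). The values of Hmmr, Mxd3 and Spc24 at 8 h rest on 1, 4 and 6 counts in all.

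The time change after PBS minus that after CGRP passed its own test for 11 of the 72 genes, on the log2 scale. It was positive for Rcan2 (1.21), Plod2 (0.96), Irf2bpl (0.88) and Gm10719 (1.81). It was negative for Lgals3 (-0.85), Arf2 (-0.66), Slc35e4 (-0.64), Ifi27 (-0.51), Ccdc81 (-2.74), Spc24 (-3.89) and Mxd3 (-4.71). The 72 were chosen on the PBS libraries that enter this test.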

How the results depend on the processing

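The 72 called genes (37 higher, 35 lower) became 422 (244 and 178) with no count filter, 334 (178 and 156) with DESeq2, 131 (62 and 69) with the 8 PBS libraries alone, 49 (27 and 22) with limma-voom and 155 (120 and 35) without replicate 4 of both times. Leaving out 1 library gave 17 to 280 called genes, 8 to 208 higher and 7 to 72 lower. RLE and upper-quartile scaling gave 72 and 78 and the stricter filter 67. For the change after CGRP (1012 genes) leaving out 1 library gave 666 to 953. For the difference between PBS and CGRP (156) no filter gave 456, DESeq2 427 and leaving out 1 library 80 to 196. Distinct list members called (23) ranged from 5 to 45. Ranking by CPM shared 15 of the 25 highest transcripts. The cause of these shifts was not tested.

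Signs reversed for Clock, which was 0.05 with limma-voom and -0.15 to 0.14 when 1 library was left out (0.06, 0.09 and 0.14 were positive). Cry1 ranged from -0.03, without PBS 8 h replicate 4, to 0.58, and was -0.03 without both replicates 4. Fabp4 ranged from -2.37 to -0.22 and was 0.19 without both. Over 157 named genes, leaving out 1 library kept side and direction in 912 fits, lost the call in 318 and gained it in 22. Only called genes could lose a call, so the 912 also hold fits of genes that were never called. Of the 72 called genes 15 stayed called in at least 6 of the 8 fits. With the replicate number as a block 69 genes were called (37 and 32), 55 of them among the 72. Same-numbered libraries had correlations of 0.0248 to 0.0597, so the numbers were not taken as pairs, although each library correlated best with its own number. Depth limits the low genes: Hmmr had 1 count at 8 h.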

Other observations

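The values of 4 further genes called after PBS follow. Slc6a12, a betaine transporter, was at 5.27, 4.06, 4.13 and 8.64 CPM at 4 h and 2.04, 2.34, 1.67 and 2.15 CPM at 8 h, and fell by 1.43 on the log2 scale (SE 0.26, adjusted p = 0.0154). Tfpi2, an inhibitor of serine proteases, was at 25.3 to 39.2 CPM and then 11.3 to 17.4 CPM, and fell by 1.19 (SE 0.24, adjusted p = 0.0323). Vtn, vitronectin, an adhesion protein of plasma and matrix, fell by 0.50 (SE 0.10, adjusted p = 0.0205). Cygb, cytoglobin, a globin of fibroblasts, was at 260 to 344 CPM and then 410 to 536 CPM, and rose by 0.56 (SE 0.11, adjusted p = 0.0166). The groups of 4 libraries did not overlap for Slc6a12, Tfpi2, Vtn or Cygb.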
